A study of Arabidopsis thaliana with 4 samples.

Results

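Organelles and the endoplasmic reticulum (ER) of Arabidopsis thaliana have small heat shock proteins of their own, made from nuclear genes, and 5 of those genes are described here. They were chosen by locus as HSP21 (AT4G27670) of the plastid, HSP23.6 (AT4G25200), HSP23.5 (AT5G51440) and HSP26.5 (AT1G52560) of mitochondria, and HSP22 (AT4G10250) of the ER. All 5 are among the 33557 genes of both deposited tables. RNA was sequenced from whole seedlings of the mutants hdp3-2 and asil1-2, aged 14 days, with 2 libraries per mutant, and the authors set each against the wild-type strain Col-0. The mutants carry alleles of HDP3 and of ASIL1, a trihelix DNA-binding factor, whose kind of mutation the labels do not give, and the series asks whether both genes act on the same targets. Plants were kept in the cold for 3 days as seed, grew on agar with 2% sucrose at 22 °C in days of 16 h of light and 8 h of dark, and have no heat treatment in the labels. Each table holds 1 FPKM per gene and genotype (sequenced fragments, corrected for how long the transcript is and how many fragments the library has), with no value per library, and the sequencing depth is unknown.

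Small heat shock proteins bind unfolding proteins without using ATP and hold them in a soluble state until ATP-driven chaperones of the HSP70 and HSP100 kinds refold them. Heat shock transcription factors switch their genes on by binding repeats of the pentamer nGAAn, the heat shock elements, and in leaves at normal temperature most of these genes are nearly silent. HSP21 protects chloroplast membranes and the plastid transcription machinery in heat and takes part in the memory of an earlier heat stress. HSP23.6, HSP23.5 and HSP26.5 act in mitochondria, and HSP22 acts inside the ER.

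The sequences just upstream of the 5 genes are shown because heat shock factors bind there, and because a second kind of element, the mitochondrial dysfunction motif through which NAC factors answer failing mitochondria, is found before HSP23.6 and HSP23.5. Each line gives the 130 bases before the annotated transcription start, read 5′ to 3′ on the strand of the gene, from the RefSeq genome TAIR10.1. The stretches lie at chr4:13819972-13820101 (minus strand) for HSP21, chr4:12916796-12916925 (plus) for HSP23.6, chr5:20891033-20891162 (plus) for HSP23.5, chr1:19575867-19575996 (minus) for HSP26.5 and chr4:6370208-6370337 (plus) for HSP22. Capitals mark matches to a heat shock element pair (8 bases) and to the mitochondrial dysfunction motif (13 bases).
HSP21: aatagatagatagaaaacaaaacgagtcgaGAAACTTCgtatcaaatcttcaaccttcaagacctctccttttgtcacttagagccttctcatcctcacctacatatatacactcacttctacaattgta
HSP23.6: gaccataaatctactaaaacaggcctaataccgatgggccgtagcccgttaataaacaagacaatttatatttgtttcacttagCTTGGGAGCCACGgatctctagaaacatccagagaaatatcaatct
HSP23.5: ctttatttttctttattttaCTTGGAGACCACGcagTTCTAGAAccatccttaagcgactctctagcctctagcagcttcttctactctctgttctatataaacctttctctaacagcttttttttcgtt
HSP26.5: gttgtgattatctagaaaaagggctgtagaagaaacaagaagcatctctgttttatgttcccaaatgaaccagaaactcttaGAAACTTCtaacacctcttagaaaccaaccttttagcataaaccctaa
HSP22: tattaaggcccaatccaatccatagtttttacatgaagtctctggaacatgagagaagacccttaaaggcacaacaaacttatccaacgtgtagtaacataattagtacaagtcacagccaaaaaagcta

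A heat shock element pair, searched on both strands as GAANNTTC or TTCNNGAA, was present in the 250 bases upstream of 3 of the 5 genes, HSP21, HSP23.5 and HSP26.5. Of 27443 protein-coding genes, 16.1% hold such a pair in the same window, and 4 of 12 cytosolic and peroxisomal small heat shock protein genes do. The pair lies 100 to 93 bases upstream of the start in HSP21, 94 to 87 in HSP23.5 and 48 to 41 in HSP26.5. A longer form, the pair followed by 2 bases of any kind and a further GAA or TTC in alternation, was found in 0 of the 5, in 2 of the 12 cytosolic and peroxisomal genes and in 0.386% of all genes. The mitochondrial dysfunction motif was searched on both strands as CTTG, any 5 bases and CANG. Counted from the RefSeq start, it was present in HSP23.6, 46 to 34 bases upstream, and in HSP23.5, 110 to 98 bases upstream. It occurs in 1.75% of all genes, in 2 of the 12 cytosolic and peroxisomal small heat shock protein genes and in 4 of 10 genes of a list known for their response to mitochondrial dysfunction. The GT box GTGATT, the kind of element that ASIL1 is known to bind, was found in HSP26.5 alone among the 5 and in 15.6% of all genes. The ER stress element, CCAAT, any 9 bases and CCACG on either strand, was in none of the 5 windows and in 0.306% of all genes, and its first letters CCAAT alone were in 46.0% of all genes, with 4 copies on either strand in HSP22 and 1 in HSP21. A match is a description of letters and not evidence of binding.

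**Figure D1:**
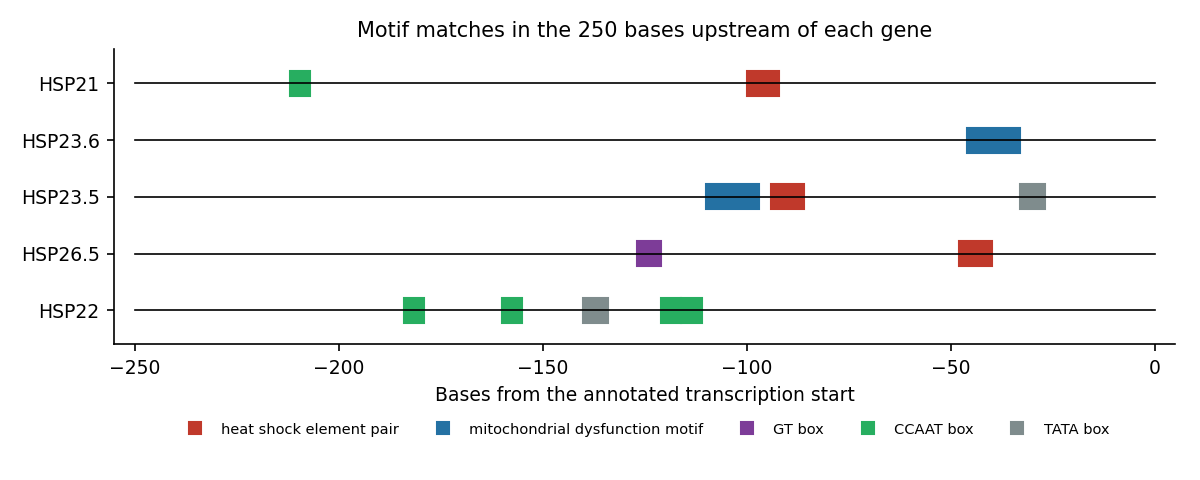
Motif matches in the 250 bases upstream of each gene, with distance in bases from the annotated transcription start on the horizontal axis and 1 line per gene. Coloured boxes are matches: HSP23.6 and HSP23.5 hold the mitochondrial dysfunction motif, and HSP21, HSP23.5 and HSP26.5 hold a heat shock element pair.

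HSP23.6 and HSP23.5 share more than this motif. From its first base on, 30 bases of the upstream regions align without gaps and are the same at 23 positions, shown in capitals, which is the highest count of all pairs of 30-base windows in the 250 bases of each. The block holds the heat shock element pair of HSP23.5, whose counterpart in HSP23.6 does not match the search.
HSP23.6: CTTGGgagCCACGgAtcTCTAGAAaCATCC
HSP23.5: CTTGGagaCCACGcAgtTCTAGAAcCATCC
The coding sequences of these 2 genes are 76.0% identical over 612 aligned bases, against 60.9% to 67.3% for the other pairs among the 5 genes. Their longest identical run is 19 bases. At 30 bases, 0 stretches of the transcripts of HSP21, HSP23.5, HSP26.5 and HSP22 recur elsewhere in the genome, and 8 of HSP23.6 do, so reads of HSP23.6 are slightly less certain. HSP22 has a single exon, and the other 4 genes have 1 intron each.

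The first comparison set hdp3-2 beside wild type. An effect of the HDP3 mutation and a difference between experiments cannot be told apart in it, since the wild-type libraries are from outside this series. All 5 genes had a higher FPKM in hdp3-2 than in wild type, and 2 of the 5, HSP23.5 and HSP22, rose by the authors' Cuffdiff test (q under 0.05). Among all 20177 tested genes 1.3% were called higher and 1.78% lower. The 5 levels summed to 4.92 FPKM in Col-0 and to 47.5 FPKM in hdp3-2, and HSP23.5 made up 77.1% of the first sum and 83.3% of the second. In RNA from whole seedlings, more RNA per cell and more cells that hold the RNA cannot be told apart.

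The mitochondrial gene HSP23.5, on chromosome 5 from 20891163 to 20892211 in TAIR10, carried most of this RNA. HSP23.5 went from a wild-type value of 3.79 FPKM to 39.6 FPKM in hdp3-2. HSP23.5 thus moved from above 54.2% of all genes by level in wild type to above 88.9% of them in hdp3-2. The change was 10.4-fold, or 3.38 ± 0.41 (SE) in log2 with a 95% interval from 2.59 to 4.18, and the authors' q was 0.00374. Its p of 5e-05 is the smallest deposited value, which HSP22 and other genes share.

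HSP23.6, the closest of the other members to HSP23.5 in coding sequence, started far lower. It went from 0.0387 FPKM to 3.58 FPKM in hdp3-2, a 92.4-fold ratio that rests on the low wild-type value. With 1 FPKM added to both values its log2 fold change was 2.14, below the 3.08 of HSP23.5. The log2 fold change of 6.53 had an SE of 2.53, and HSP23.6 did not pass the authors' test (p = 0.247, q = 0.745). Its p is far larger than the 0.00996 that a normal reading of its statistic of 2.58 would give, so the SE may be too small. HSP23.6 lies on chromosome 4 from 12917017 to 12918053 in TAIR10, and its RefSeq start, used for the upstream sequence, is 12916926.

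HSP26.5, the third mitochondrial gene, went from 1.05 FPKM to 3.17 FPKM in hdp3-2. Its log2 fold change was 1.60 ± 0.69 (SE), with a 95% interval from 0.25 to 2.95. HSP26.5 had an unadjusted p of 0.00545 and did not pass after correction over all genes (q = 0.115). That p is smaller than the 0.0205 that a normal reading of its statistic of 2.32 would give. The SE may thus err in either direction. HSP26.5 lies on chromosome 1 from 19574760 to 19575866. The order of the mitochondrial genes by level was HSP23.5, HSP26.5, HSP23.6 in wild type and HSP23.5, HSP23.6, HSP26.5 in hdp3-2, and without values per library the spread behind the order of the last 2 is unknown.

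The plastid gene HSP21 and the ER gene HSP22 stayed low in both genotypes. HSP21, on chromosome 4 from 13818870 to 13819971, went from 0.0407 FPKM to 0.590 FPKM in hdp3-2, a log2 fold change of 3.86 with an SE of 2.48. HSP21 did not pass in the authors' deposited table (p = 0.250, q = 0.747). HSP22, on the same chromosome from 6370343 to 6371291, had a wild-type entry of 0 and 0.592 FPKM in hdp3-2. HSP22 was called in the authors' deposited table (p = 5e-05, q = 0.00374). The 2 genes thus had almost the same level in hdp3-2, which exceeded that of 41.3% of all genes, and were called differently. No fold is given for HSP22, since its wild-type value is 0.

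**Figure D2:**
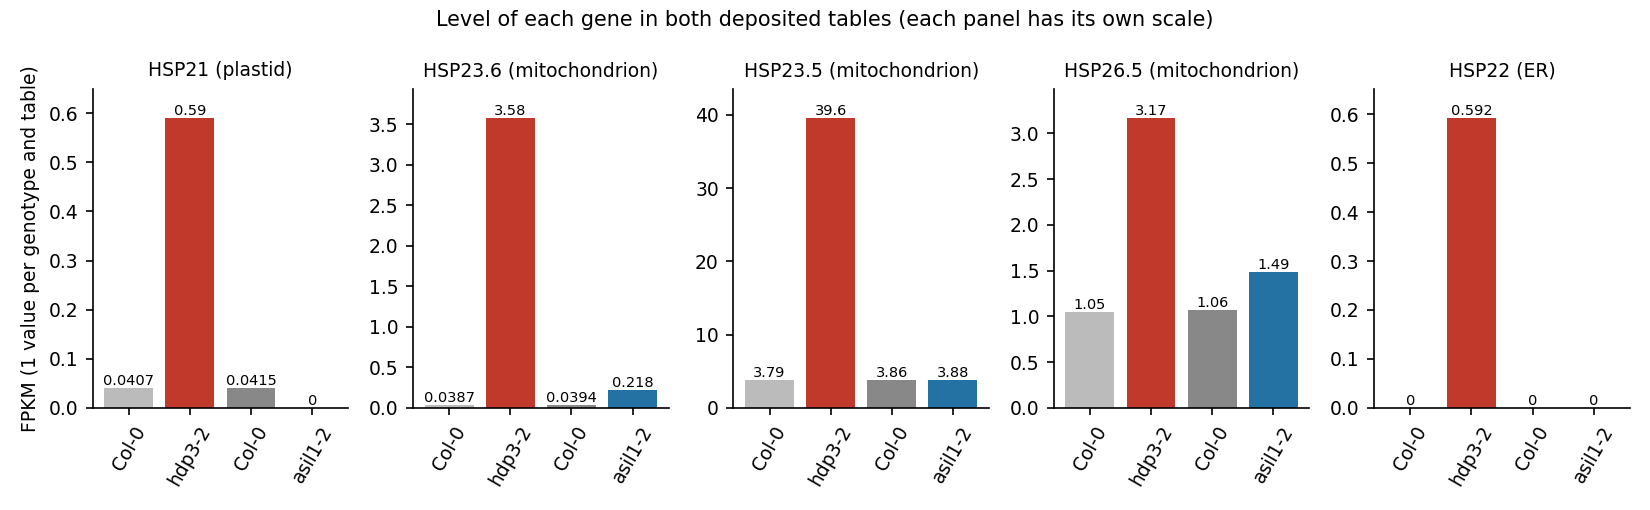
FPKM of each gene in Col-0 and hdp3-2 (first 2 bars) and in Col-0 and asil1-2 (last 2 bars), as deposited, with 1 value per genotype and table and no error bars because no values per library are given. Each panel has its own vertical scale from 0: hdp3-2 is the highest bar in all 5 panels, from 0.590 FPKM in HSP21 to 39.6 FPKM in HSP23.5.

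Calls of large rises differed by wild-type level, and the level in hdp3-2 differed along with it. Of the tested genes at least 4-fold higher in hdp3-2, 10 had a wild-type FPKM above 0 and under 0.1, HSP21 and HSP23.6 among them, and 0 of the 10 were called by Cuffdiff (q under 0.05). The smallest p among the 10 was 0.0121, and 6 of them had a p from 0.24 to 0.26, as HSP21 and HSP23.6 did. With a wild-type FPKM of 0.1 to 1, 4 of 31 such genes were called, and with 1 to 10, where HSP23.5 lies, 15 of 18. The median FPKM in hdp3-2 was 0.663 for wild type above 0 and under 0.1, 1.73 for 0.1 to 1 and 33.9 for 1 to 10. The levels in wild type and in hdp3-2 thus rose together and were not separated. HSP22 belongs to the 29 tested genes that were listed at 0 in wild type, of which 7 were called, with p from 5e-05 to 0.242 over the 29. Of the 7, HSP22 had the second lowest FPKM in hdp3-2.

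**Figure D3:**
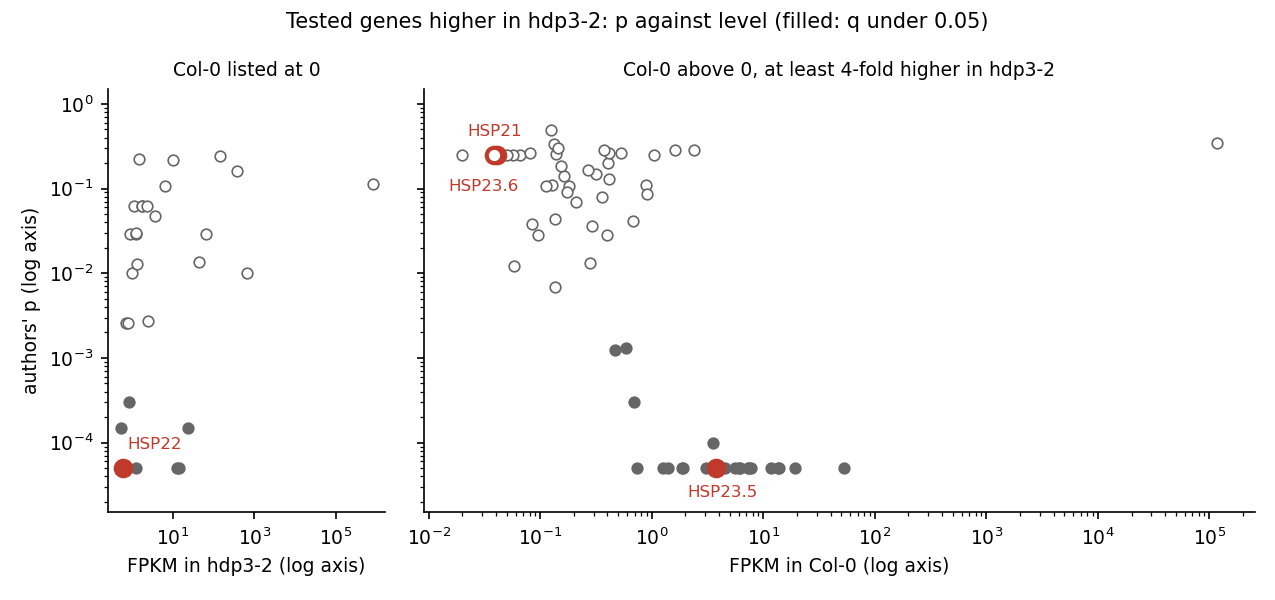
The authors' p (vertical, log axis) of tested genes higher in hdp3-2, against FPKM in hdp3-2 for the 29 genes listed at 0 in Col-0 (left) and against FPKM in Col-0 for genes at least 4-fold higher in hdp3-2 (right), with log horizontal axes. Filled points have a q under 0.05 and points in red outline are the members: HSP23.5 and HSP22 lie at 5e-05, and HSP21 and HSP23.6 near 0.25.

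The second comparison set asil1-2 beside the same wild type, with the same limit for an effect of the ASIL1 mutation. Of the 5 genes only HSP23.5 and HSP26.5 were tested by the authors, and 0 of these 2 were called by Cuffdiff. At an unadjusted p under 0.05 the count was 0 as well, and it was 0 with a normal reading of the statistic. Among all 20205 tested genes 8.42% were called, 2.71% higher and 5.72% lower. HSP23.5 had 3.86 FPKM in Col-0 against 3.88 FPKM in asil1-2, a log2 fold change of 0.00 ± 0.44 (SE) with a 95% interval from -0.86 to 0.87 (q = 0.992). HSP26.5 had 1.06 FPKM in Col-0 against 1.49 FPKM in asil1-2, a log2 fold change of 0.48 ± 0.74 (SE), with a 95% interval from -0.96 to 1.93 (q = 0.662).

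The remaining 3 genes were given no test in asil1-2, and their values say nothing about a change. HSP23.6 had 0.0394 FPKM in Col-0 against 0.218 FPKM in asil1-2. HSP21 had 0.0415 FPKM in Col-0 and is listed at 0 in asil1-2, and HSP22 was listed at 0 in both genotypes. These 3 genes had a test in hdp3-2 and not in asil1-2, where both levels were low.

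The fold changes of the mutants were then set against each other, to ask whether they differ. HSP23.5 differed by 3.38 ± 0.60 (SE) in log2, higher in hdp3-2, with a 95% interval from 2.20 to 4.56. A z test over 19977 genes, a normal approximation that rests on 2 libraries per mutant, gave it a Benjamini-Hochberg adjusted p of 3.76e-05. HSP26.5 differed by 1.12 ± 1.01, with an interval from -0.86 to 3.10 and an adjusted p of 1.00 in the z test. Of these 2 members with a value in the z test, 1 passed, where 0.13% of all genes did, 0.105% being higher in hdp3-2 and 0.025% lower. Both fold changes share their wild type, and the z test takes no account of it. HSP23.6 was 3.58 FPKM in hdp3-2 and 0.218 FPKM in asil1-2, HSP21 0.590 FPKM and 0, and HSP22 0.592 FPKM and 0, without a test of these differences.

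None of the tested genes next to the 5 members was called. Among all tested genes 3.08% were called in hdp3-2 and 8.42% in asil1-2, so no call among so few neighbours says little. The nearest gene on each side was taken, 10 in all, of which 7 were tested in hdp3-2 and 0 called by Cuffdiff, with log2 fold changes from -0.46 to 0.40 and 0 at an unadjusted p under 0.05. HSP23.5 lies between AT5G51430, whose annotated end is 156 bases away, and RIN3 (AT5G51450), 227 bases away. In hdp3-2 AT5G51430 had a log2 fold change of 0.11 ± 0.28 and RIN3 of -0.08 ± 0.33. HSP23.6 begins 770 bases from QWRF7, which was not tested in hdp3-2, and ends 112 bases before AT4G25210, at 0.19 ± 0.28. Both neighbours of HSP22 were listed at 0 in all columns. In asil1-2, 0 of 8 tested neighbours were called by Cuffdiff, and 2 had an unadjusted p under 0.05, with log2 fold changes from -0.39 to 1.72. The highest of them was QWRF7, at 1.72 ± 1.09 with an unadjusted p of 0.0421.

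Other chaperones of the same compartments were taken as lists. The plastid list holds the HSP70, HSP90, chaperonin and Clp proteins of the chloroplast. Of its 10 tested genes 0 were called in hdp3-2 by Cuffdiff, 1 had an unadjusted p under 0.05, and the median log2 fold change was -0.07, beside -0.06 over all tested genes. In asil1-2, 2 of the 10 fell and 0 rose, with a median of -0.21 beside -0.08 over all tested genes. The 2 were HSP90.5 (AT2G04030, given as CR88 in the reference), at -0.67 ± 0.24, and CLPB3, a ClpB-type unfoldase, at -0.67 ± 0.26.

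Of the 8 mitochondrial chaperones 1 rose and 0 fell in hdp3-2, and 3 had an unadjusted p under 0.05. The other 2 were MTHSC70-2, an HSP70 (0.55 ± 0.29, q = 0.140), and the chaperonin HSP60 (0.51 ± 0.28, q = 0.168). The gene that rose was CLPB4 (AT2G25140), a ClpB-type chaperone that is able to pull apart protein aggregates, which went from 5.61 FPKM to 13.5 FPKM. The log2 fold change of CLPB4 was 1.26 ± 0.30 (q = 0.00374), and the median of the list was 0.07. In asil1-2, 0 of the 8 were called by Cuffdiff and 0 had an unadjusted p under 0.05, with a median of -0.03.

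The ER list holds BiP, calnexin, calreticulin and disulfide isomerase genes. Of 16 tested in hdp3-2, 1 rose and 0 fell, with a median log2 fold change of -0.23 and 3 values above 0. At an unadjusted p under 0.05 there were 5, the riser and BIP1, BIP2, CNX1 and SDF2, whose values ran from -0.53 to -0.46. The riser was ATERDJ3A (AT3G08970), a J-domain co-chaperone of BiP, which went from 1.77 FPKM to 4.10 FPKM, a log2 fold change of 1.21 ± 0.42 (q = 0.0174). In asil1-2, 0 of 17 were called by Cuffdiff, 3 had an unadjusted p under 0.05, and the median was -0.21. The 3 were BIP1 (-0.40 ± 0.24), BIP2 (-0.35 ± 0.24) and, in the other direction, BIP3 (2.62 ± 1.09, q = 0.0649). BIP3 was low, with 0.106 FPKM in Col-0 against 0.649 FPKM in asil1-2. The 3 transcription factors of the unfolded protein response, BZIP60, BZIP28 and BZIP17, had log2 fold changes from -0.13 to 0.07 in hdp3-2, where 0 were called by Cuffdiff and 0 had an unadjusted p under 0.05. In asil1-2, 0 of the 3 were called and 2 had an unadjusted p under 0.05, with a median of -0.08.

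Genes of the response to mitochondrial dysfunction were examined because HSP23.6 and HSP23.5 hold its motif. In hdp3-2, 2 of 9 tested rose and 0 fell, with a median of 0.20. UGT74E2, which attaches glucose to the auxin indole-3-butyric acid, went from 10.2 FPKM to 20.4 FPKM, and AT2G04050, a transporter of the MATE efflux family, from 0.940 FPKM to 3.08 FPKM. Their log2 fold changes were 1.00 ± 0.31 and 1.71 ± 0.63. AOX1A, the alternative oxidase by which this response is usually followed, had 50.6 FPKM in Col-0 against 51.7 FPKM in hdp3-2 (0.03 ± 0.28). In asil1-2, 1 of 9 rose and 2 fell, with a median of -0.47. BCS1, an ATPase of the outer mitochondrial membrane, rose by 0.80 ± 0.36, while AOX1A had a value of -0.78 ± 0.25 and UGT74E2 of -1.51 ± 0.34.

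**Figure D4:**
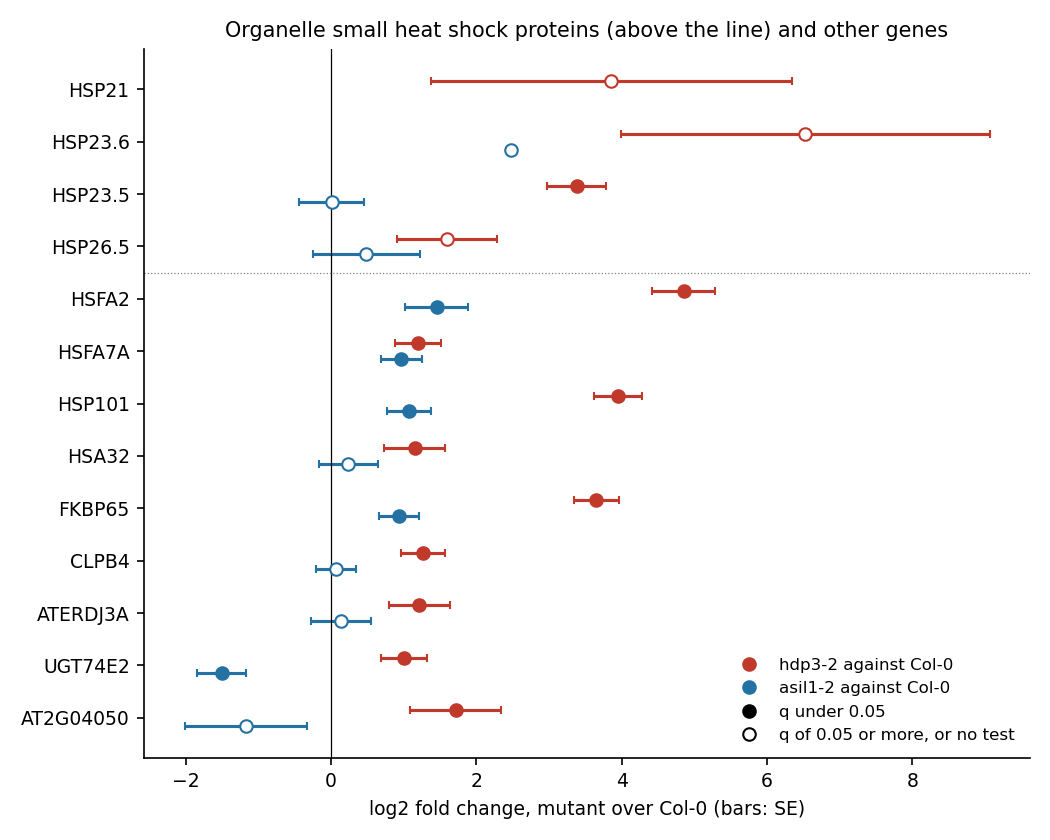
Log2 fold change over Col-0 (horizontal axis, bars are SE) in hdp3-2 (red) and asil1-2 (blue) for the 4 members with a value and for 9 genes of the other lists, below the dotted line. Filled points have a q under 0.05, open points do not or had no test, and HSP22 has no fold: HSP23.5 lies at 3.38 in hdp3-2 and 0.00 in asil1-2.

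Among the heat shock transcription factors, 2 of 17 tested rose and 1 fell in hdp3-2, with a median log2 fold change of 0.18. HSFA2, which maintains small heat shock protein expression after heat, went from 1.41 FPKM to 40.6 FPKM in hdp3-2 and from 1.43 FPKM to 3.92 FPKM in asil1-2. The log2 fold changes of HSFA2 were 4.85 ± 0.43 and 1.45 ± 0.43, and those of HSFA7A, a related activator, 1.20 ± 0.32 and 0.97 ± 0.29. The gene that fell was HSFB1 (AT4G36990, given as HSF4 in the reference), at -0.71 ± 0.28 in hdp3-2, where its q was 0.0487. In asil1-2, 2 of 17 rose and 0 fell, with a median of -0.09. The genes that rose there were HSFA2 and HSFA7A. HSP23.5 had a value of 0.00 ± 0.44 in asil1-2, and a link between these factors and HSP23.5 was not tested.

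Heat memory genes and known partners of HSP21 form a list of 6, of which 5 were tested. In hdp3-2, 4 rose and 0 fell, with a median of 1.15. They were HSP101, the cytosolic disaggregase (3.94 ± 0.33), AT5G48570 (FKBP65 or ROF2, 3.65 ± 0.31) and ROF1 (0.71 ± 0.28), both prolyl isomerases, and HSA32, which prolongs acquired heat tolerance (1.15 ± 0.42). In asil1-2, 2 rose and 1 fell, with a median of 0.23. HSP101 rose by 1.07 ± 0.30 and AT5G48570 by 0.93 ± 0.27, while PTAC5, a plastid nucleoid protein that binds HSP21, had a value of -0.50 ± 0.25. FTSH6, the plastid protease that degrades HSP21, was not tested in either mutant and was under 0.1 FPKM throughout.

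Of the 12 cytosolic and peroxisomal small heat shock protein genes, all tested, 6 rose and 0 fell in hdp3-2 (median log2 fold change 3.93), and 2 rose in asil1-2 (median 0.80). Their summed level went from 127 FPKM to 608 FPKM in hdp3-2, beside 4.92 FPKM and 47.5 FPKM for the 5 organelle and ER genes. The 4 largest called increases in hdp3-2 were HSP17.6A (7.26 ± 0.94), AT1G07400 (5.78 ± 0.58), AT1G59860 (4.10 ± 0.56) and AT2G29500 (3.77 ± 0.37). In asil1-2 the calls were HSP17.6A (3.42 ± 0.99) and AT1G07400 (2.21 ± 0.59).

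The pattern across genotypes was compared with that of all other genes by the distance between pairs of log2 fold changes. The reference point was the median of the 3 members above 0 in every column, at 3.38 in hdp3-2 and 0.48 in asil1-2. It joins the value of HSP23.5 in hdp3-2 with that of HSP26.5 in asil1-2 and draws on the untested value of HSP23.6 in asil1-2 (2.47), so it is a midpoint that none of the members has. Among 19317 other genes with at least 1 FPKM in some genotype, Hop3 (AT4G12400), a co-chaperone that links HSP70 and HSP90, was nearest, at a distance of 0.24 in log2. Hop3 had log2 fold changes of 3.31 in hdp3-2 and 0.71 in asil1-2 and was called in both. AT2G07671, annotated as an ATP synthase subunit C family protein, followed at 0.41, was not called in either mutant, and stood at 3.10 and 0.78. It lies in the copy of mitochondrial DNA on chromosome 2, so its reads cannot be told from mitochondrial ones. The next were AT2G29500 (distance 0.47), AT5G48570 (0.52) and AT1G54050 (0.54), of which AT2G29500 and AT1G54050 are cytosolic small heat shock proteins. The likeness rests on 2 values per gene that share their wild type.

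Markers were checked because small heat shock proteins are also made in ripening seeds. Of 6 seed maturation genes, 3 were tested in hdp3-2 and 2 in asil1-2, and 0 were called by Cuffdiff, with 1 at an unadjusted p under 0.05 in each. The 6 sum to 2.64 FPKM in wild type, 3.63 FPKM in hdp3-2 and 2.17 FPKM in asil1-2, and EM1 and SESA1 were listed at 0 in wild type. The 5 green leaf markers were all between 3519 and 11044 FPKM, with 0 called in either mutant by Cuffdiff and 0 at an unadjusted p under 0.05. The 4 root markers sum to 16.9 FPKM in Col-0 against 26.3 FPKM in hdp3-2, with 0 called and 2 at an unadjusted p under 0.05, and in asil1-2 PRP1 rose while IRT1 and FRO2 fell. The 3 floral genes were at or under 1.13 FPKM throughout. The part of root RNA in the results for hdp3-2 was not tested. The FPKM of all genes sum to 1.46e+06 in wild type and 4.47e+06 in hdp3-2 and to 1.48e+06 and 1.40e+06 in the asil1-2 table.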

How the data were processed

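Whole seedlings were profiled by RNA sequencing, with 2 libraries for each of the 2 mutants. Per the submitters' processing notes, TopHat2, Cufflinks, Cuffdiff and deepTools were used with the build TAIR10, and no source used here gives their versions or options. The FPKM values were made by the authors, 1 per gene and genotype. How libraries were combined and scaled is not given, and the wild-type columns of the 2 tables differ by a factor of 0.982. The deposited score per gene is the authors' Cuffdiff statistic, and the p-value and q-value are deposited beside it. The smallest deposited p is 5e-05. Wild-type libraries are not analysed here as samples, and no label gives their number or growth. The design text gives Col-0 seedlings the same age in weeks. Nothing says that libraries came from separate plants, so the p-values may reflect technical spread alone.

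A gene was called at status OK and q under 0.05, over all tested genes. Log2 fold changes were computed from FPKM with no pseudocount, which for low genes makes them large and uncertain. Their SE is the fold change divided by the statistic, and 95% intervals assume a normal error. The mutants were compared with a z test on the difference, with Benjamini-Hochberg adjustment. A simulation of the z test drew independent normal errors of the same SE, so it cannot check that SE or the shared wild type. The members and the 12 gene lists (105 genes, all in the tables) were chosen with earlier results of these data known. Named genes are all members, HSFA2, at most 4 called genes per list and comparison by size of change, and the 5 most alike. AOX1A in hdp3-2, FTSH6, the seed genes EM1 and SESA1, the BZIP factors, MTHSC70-2, HSP60, BIP1, BIP2, BIP3, CNX1, SDF2 and the neighbours are named beyond that rule or after their values were seen. So are AT4G39364 and ATCG00760. Upstream sequences were read from RefSeq TAIR10.1 for all 5 members. The RefSeq starts of HSP23.6 (12916926) and HSP22 (6370338) differ from the TAIR10 starts given above. Motif and neighbour distances are counted in RefSeq. Of 32809 nuclear loci of the tables, 32808 overlap the gene of the same name there, and gene positions are in TAIR10, counted from 1. Antisense or overlapping reads cannot be told apart, since the strand of the libraries is not given. Alternatives were other q and FPKM minimums, recomputed adjustment, a normal reading of the statistic, pseudocounts of 1 and 0.1, centring and rescaling. SciPy 1.17.1, NumPy 2.4.6, pandas 2.3.3, Biopython, pyfaidx and matplotlib 3.10.9 were run under Python 3.11.15. The titles spell the first mutant hpd3-2 and the genotype labels hdp3-2, which is used here.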

Additional observations from a re-analysis of the deposited data

Results flagged for a closer look

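HSP23.5 is listed because its fold changes over the shared wild type differed between the mutants. Its log2 fold change over wild type was 3.38 higher in hdp3-2 than in asil1-2 in a z test with an adjusted p of 3.76e-05, and of 3.68e-12 to 3.76e-05 under the alternatives. These alternatives lowered the variance or changed the threshold or the set of genes, so they are a weak check. Rescaling to equal nuclear totals was not put through the z test. The values behind it were 3.38 ± 0.41 (SE) in hdp3-2 and 0.00 ± 0.44 in asil1-2.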

How the results depend on the processing

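The count of 2 members called in hdp3-2 was the same at q under 0.01, with recomputed adjustment and without organelle genome genes. It was also 2 with a log2 fold change of at least 1, a filter that kept genes without a fold, such as HSP22. It was 1, HSP23.5, with an FPKM of at least 1 in the higher genotype, which leaves HSP22 out, and 1 with a normal reading of the statistic, which HSP22 lacks. In asil1-2 the count was 0 under all 6 alternatives. In the test between mutants it was 1, HSP23.5, under all 3, and none of the 3 made its SE larger. Over all genes, the 622 calls in hdp3-2 became 341 at q under 0.01 and 147 with the normal reading. With at least 2-fold change or no fold they became 274. The 1702 in asil1-2 became 918, 438 and 453 in that order. The 26 genes that differ between mutants became 125 with the variance multiplied by 0.5. With a pseudocount of 1 the values in hdp3-2 were 0.61 for HSP21, 2.14 for HSP23.6, 3.08 for HSP23.5 and 1.03 for HSP26.5. Setting nuclear totals equal changed every log2 value by -0.54 in hdp3-2, where HSP23.5 was then 2.85 and HSP26.5 1.06, and by 0.38 in asil1-2, where HSP23.5 was 0.39. The nuclear total of hdp3-2 includes AT4G39364 at 468888 FPKM. With centring on the median instead, HSP23.5 was 3.45 in hdp3-2. No paired analysis was possible because the tables hold 1 value per genotype, and for the same reason leaving out a library could not be run. The unknown depth limits the low genes, and 3 members have no test in asil1-2.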
